A study of Mus musculus with 30 samples.

Results

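The mouse genes of miR-219 and miR-338 are the microRNA genes best known from oligodendrocytes, the cells that wrap axons of the central nervous system in myelin. The tables were searched for the symbols Mir219a-1, Mir219a-2, Mir219b, Mir219c and Mir338, and all 5 were found among the 2194 named features. The small RNA of 5 whole organs (spleen, liver, kidney, heart and brain) was read in 6 male mice, 4 months of age, as 6 libraries per organ and 30 in all. In each organ 3 libraries came from mice labelled Ftsj1_DF, which are deficient in Ftsj1, and 3 from mice labelled WT. Ftsj1 encodes an enzyme that places 2'-O-methyl groups on transfer RNA, and the contrast asks whether microRNA levels differ when it is missing. The labels give no strain and no description of the allele, and the animals received no treatment. Of the 6 mice, 4 were brothers and the other 2 were brothers as well, and each mouse gave all 5 organs.

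MicroRNAs are cut from a hairpin precursor, and either arm can give a mature strand that binds messenger RNAs through its seed near the 5′ end. miR-219 and miR-338 accumulate as oligodendrocyte progenitors stop dividing and mature. They are known to repress genes that hold the cell in the progenitor state, such as Pdgfra, Sox6 and Hes5. Mir219a-1 and Mir219a-2 are separate gene copies on chromosomes 17 and 2. Mir219c and Mir219b are the hairpins read from the opposite strand of those same loci. Mir338 lies on chromosome 11 in an intron of Aatk, a kinase gene of the nervous system, on the same strand. Mir3065 is the hairpin on the strand opposite Mir338. Among other neighbours in the GENCODE annotation, Mir219a-1 overlaps the long noncoding RNA gene Gm26940 and lies nearest the protein-coding gene Ring1, and Mir219a-2 lies nearest Urm1.

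The mature strands show which seeds the precursors carry. They come from RefSeq (build GRCm38.p6), run 5′ to 3′, and carry the seed, bases 2 to 8, in capitals.
miR-219a-5p: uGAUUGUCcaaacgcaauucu
miR-219a-1-3p: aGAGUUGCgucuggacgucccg
miR-219b-5p: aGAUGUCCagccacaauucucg
miR-219b-3p: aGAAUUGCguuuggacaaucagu
miR-219c-5p: gGACGUCCagacgcaacucucg
miR-219c-3p: cGAGAAUUgcguuuggacaauc
miR-338-5p: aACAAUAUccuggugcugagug
miR-338-3p: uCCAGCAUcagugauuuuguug
The 21 bases of miR-219a-5p are the same from Mir219a-1 and Mir219a-2. No 2 of these 8 mature strands share a seed. The features of the tables are precursors, so a value does not say which arm was read. The 3p arm of Mir219a-2 is not shown here.

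The hairpins are shown because every one of the 3 loci is annotated on both strands. Capitals mark the bases that lie outside the antisense hairpin of the same locus, and lower case marks the bases that both strands' hairpins cover.
Mir219a-2: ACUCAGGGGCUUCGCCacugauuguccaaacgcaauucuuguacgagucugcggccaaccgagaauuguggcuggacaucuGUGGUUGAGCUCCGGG
Mir219a-1: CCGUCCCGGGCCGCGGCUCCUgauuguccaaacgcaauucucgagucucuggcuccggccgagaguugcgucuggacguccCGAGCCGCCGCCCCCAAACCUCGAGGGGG
Mir338: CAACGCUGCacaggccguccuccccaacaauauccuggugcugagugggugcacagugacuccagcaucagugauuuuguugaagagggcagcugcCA
Mir219b covers 65 of the 97 bases of Mir219a-2, Mir219c covers 60 of the 110 bases of Mir219a-1, and Mir3065 covers 87 of the 98 bases of Mir338. Aligned end to end, Mir219a-1 and Mir219a-2 were identical at 72 of 114 positions (63.2%), and their longest shared stretch was 22 bases. Each antisense hairpin thus lies wholly inside its partner, and the copies can be told apart outside the shared 5p stretch.

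**Figure D1:**
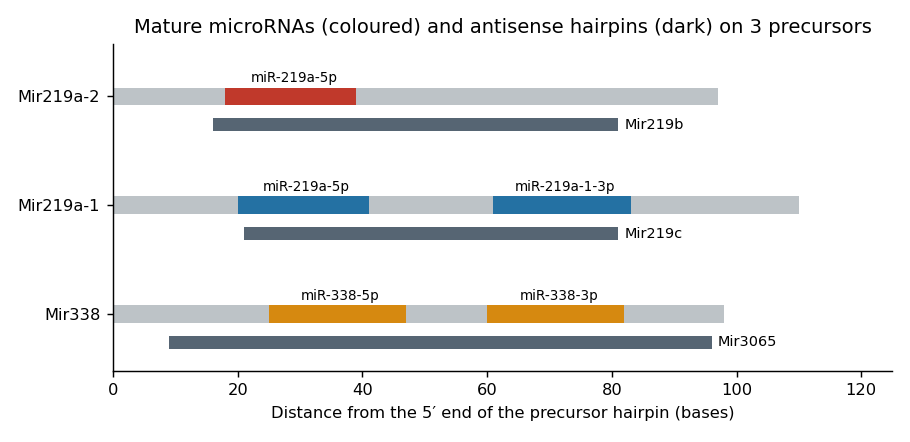
Positions of the mature microRNAs (coloured), the precursor hairpin (light grey) and the antisense hairpin of the opposite strand (dark grey), in bases from the 5′ end of each precursor. The mature strands of Mir338 lie wholly within Mir3065, those of Mir219a-1 extend past Mir219c by 1 base and 2 bases, and miR-219a-5p of Mir219a-2 lies wholly within Mir219b (its 3p arm is not drawn).

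Mir219a-2 was abundant in brain and scarce in the other organs. Its mean in brain was 61490.7 normalized counts, that is 0.381% of all normalized counts of that organ or 3815 per 1000000 of them (CPM), and it ranked 55 among the named features. The value is the authors' mean over 6 libraries of counts divided by size factors, the scaling constants that correct for sequencing depth. Too many reads stand behind it to be split into libraries, and the deposited standard error corresponds to a spread between libraries of 23.0% (coefficient of variation of the fitted model).

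In spleen Mir219a-2 averaged 132.4 ± 51.5 normalized counts (SD, n = 6), or 12.3 CPM. In heart it averaged 97.5 ± 57.3 (SD, n = 6), or 11.5 CPM. In liver it averaged 124.4 ± 87.0 (SD, n = 6), or 6.57 CPM, and in kidney 117.9 ± 56.3 (SD, n = 6), or 5.41 CPM. The ranges over libraries of all 4 organs overlapped, so their order was not separated beyond the spread. Brain stood 309-fold above spleen, the next organ, and 705-fold above kidney, the lowest. With the 10 most abundant features of each organ left out of the totals, the fold over the next organ was 197. The organs were normalized separately and are set side by side only as shares of their own totals, without a test. In whole organs, fewer cells of a type and less RNA per cell cannot be told apart.

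Mir219a-1, the other source of miR-219a-5p, had no such preference. Its level was 7.67 ± 1.60 CPM in spleen, 6.28 ± 1.75 in heart, 3.68 ± 1.52 in brain, 3.13 ± 1.17 in kidney and 2.97 ± 0.862 in liver (SD, n = 6 each). The highest organ thus exceeded the lowest by 2.59-fold, and neighbours in this order overlapped in their libraries. Spleen libraries (6.13 to 10.03 CPM) lay wholly above brain libraries (2.20 to 5.38 CPM). The order of the organs depended on the totals used. With the 10 most abundant features of each organ left out of the totals, the level was 22.3 in spleen and 14.6 in heart. It was then 12.3 in liver, 9.24 in kidney and 6.81 in brain, so brain was the lowest organ and liver stood above kidney. In brain itself the reads were 144, 43 and 26 in the libraries of one genotype and 46, 65 and 61 in those of the other. Brain was therefore not the organ in which this copy was highest.

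Mir338 was low in brain and nearly absent from the counts elsewhere. Its mean in brain was 7.55 ± 4.76 normalized counts (SD, n = 6), or 0.468 CPM, from 31, 4 and 4 reads in the libraries of one genotype and 11, 5 and 3 reads in those of the other. The largest library held 31 of its 58 reads. Heart held 1 read in 1 of 6 libraries, and Mir338 is listed at 0 in kidney, liver and spleen. Brain was thus the only organ with more than 1 read, but Mir338 ranked 557 there, and its mean count was 8145-fold below that of Mir219a-2. Both listed mature strands of Mir338 lie wholly within Mir3065, and the part of that overlap in the counts was not tested. Mature strands differ little in length, so these counts are compared without a length correction.

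Mir219b and Mir219c are listed at 0 in all 5 organs, as is Mir3065. Genes of cells found in these organs, such as Mir451a of red cells and Mir142 of leukocytes, are also listed at 0, so an exact 0 is given here only as a listed value. Both of these genes also lie wholly inside a hairpin of the opposite strand, as Mir219b, Mir219c and Mir3065 do. The hairpin around Mir142, Mir142b, had a highest organ mean of 39411.4, while the one around Mir451a, Mir451b, is itself listed at 0. Whether the reads were counted by strand is not given in the sources used here, and without it the reads of a hairpin and of its antisense partner cannot be told apart. The values of Mir219a-2, Mir219a-1 and Mir338 carry this limit.

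**Figure D2:**
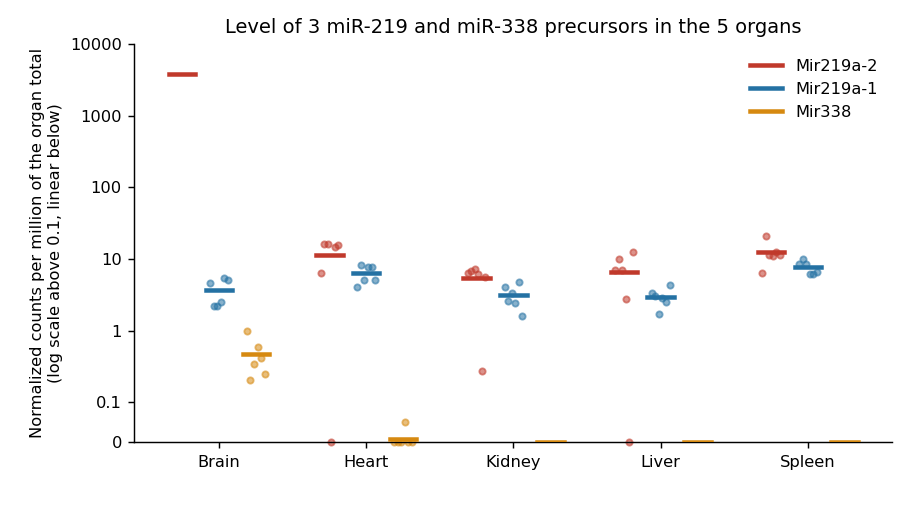
Level of Mir219a-2, Mir219a-1 and Mir338 in each organ, in CPM (log scale above 0.1, linear below), with bars for the mean of 6 libraries and points for single libraries. Mir219a-2 in brain, at 3815 CPM, is given by its mean alone, and Mir338 lies on the zero line in kidney, liver and spleen.

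Mir219a-2 held the larger share of the miR-219 counts in all 5 organs, to very different extents. It held 99.9% of the summed miR-219 counts in brain and Mir219a-1 held 0.0963%, a ratio of 1037-fold. The share of Mir219a-2 was 68.9% in liver, 64.6% in heart, 63.3% in kidney and 61.6% in spleen. Mir219b and Mir219c added 0% everywhere. Computed for each side of the genotype contrast alone, the share was 99.9% on both sides in brain and lay between 57.8% and 74.8% in the other organs.

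Within single libraries the share of Mir219a-2 among reads of both copies ran from 42.4% to 67.7% in spleen. In heart 5 libraries lay between 61.4% and 76.4% and 1 library at 0%. In kidney 5 lay between 60.7% and 78.0% and 1 at 5.36%, and in liver 5 lay between 49.4% and 80.5% and 1 at 0%. A single library in each of heart, kidney and liver therefore went against the rest of its organ. How reads that match both copies were assigned is not given in the sources used here.

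These libraries were followed through the recovered reads. The tables name neither the libraries nor the genotype in the numerator of the fold change, so "positive side" stands here for the 3 libraries that raise the fold change and "negative side" for the 3 that lower it, each numbered by falling size factor. Which side is Ftsj1_DF was not inferred, and setting signs side by side between organs assumes the same numerator in each table.

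In heart, Mir219a-2 had 129, 94 and 84 reads in the positive libraries and 0, 91 and 85 in the negative ones. Normalized, these are 54.5, 136 and 139 against 0, 124 and 132. The sides overlapped, and the 0 fell in the negative library with a size factor of 2.28, where a count of 0 allows up to 3 reads, or 1.31 normalized counts.

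In kidney the reads were 182, 191 and 109 against 150, 6 and 96, or 137, 150 and 158 against 134, 5.88 and 122 normalized counts. All positive libraries lay above all negative ones, the nearest by 137 against 134. In liver the reads were 97, 115 and 66 against 114, 0 and 344, or 133, 191 and 132 against 52.9, 0 and 237 normalized counts, and the sides overlapped. The negative side of liver thus held both the lowest and the highest library, and its 0 allows up to 1.95 normalized counts.

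In spleen the reads were 104, 168 and 77 against 177, 149 and 109, or 68.4, 226 and 123 against 119, 135.1 and 123 normalized counts. The sides overlapped, and no spleen library was near 0. Without its lowest library, the mean of Mir219a-2 rose to 117 ± 35.4 in heart, 140 ± 13.9 in kidney and 149 ± 69.5 in liver (SD, n = 5 each). Against the means over all 6 libraries given above, the largest relative spread left was that of liver.

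**Figure D3:**
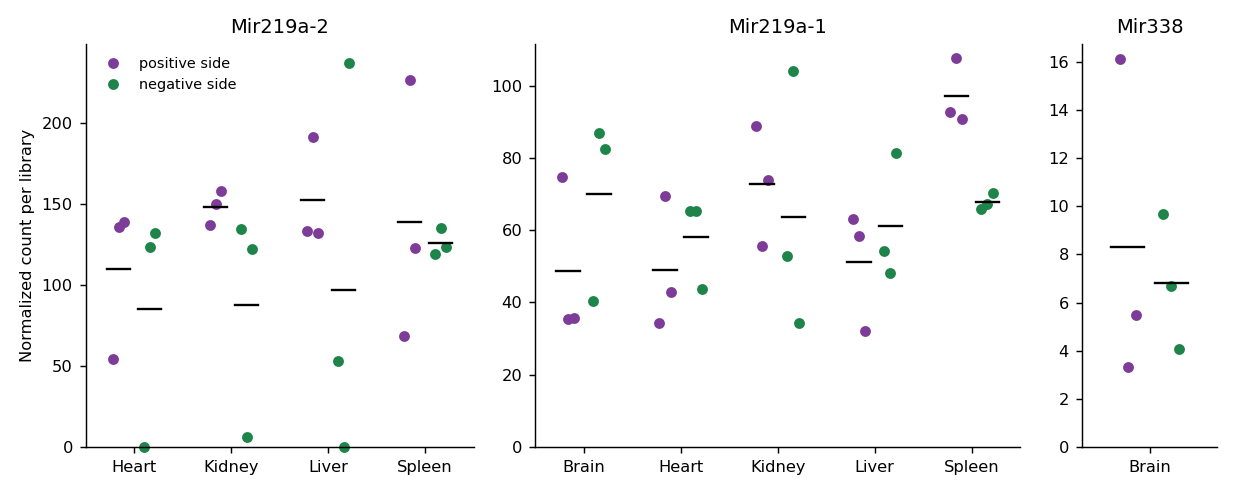
Normalized counts of single libraries (points) and side means (black lines) for Mir219a-2 outside brain, Mir219a-1 in all organs and Mir338 in brain, by side of the genotype contrast. For Mir219a-2, 1 negative library in each of heart, kidney and liver lies at 0, 5.88 and 0, while Mir219a-1 has no library near 0.

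The same libraries were compared for the features whose organ pattern is most like that of Mir219a-2. Likeness was the Euclidean distance between profiles of log2(CPM + 1) over the 5 organs, each centred on its own mean, among 487 microRNA features with a mean of at least 10 in brain. The 5 nearest were Mir124a-2 (distance 0.18), Mir124a-3 (0.21), Mir770 (0.43), Mir124a-1 (0.54) and Mir1298 (0.64). miR-124 is the classical microRNA of neurons, and Mir770 belongs to the imprinted Dlk1-Dio3 cluster. Mir219a-2 exceeded Mir124a-2 by 1.20-fold in brain, 1.38-fold in heart, 1.41-fold in spleen, 1.49-fold in liver and 1.50-fold in kidney, a near-constant ratio that the choice by likeness itself selects for.

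In heart, the library without Mir219a-2 reads held 0 reads of Mir124a-1, 2 of Mir124a-2, 20 of Mir770 and 0 of Mir1298. The other heart libraries held 51 to 102 reads of Mir124a-2. In kidney, the library with 6 reads of Mir219a-2 held 0 reads of each of these 4 features, and in liver the library with 0 reads of Mir219a-2 did so as well. Mir219a-1 did not follow them, with 149, 106 and 74 reads in the 3 libraries. That was 65.2 normalized counts in heart, 104 in kidney, the highest of the 6, and 48.2 in liver, the lowest but one. The Mir138 copies, chosen after their values were seen, are also highest in brain (278 and 148 CPM) and were divided. Mir138-2 had 71, 33 and 44 reads in these 3 libraries, in kidney and liver its highest normalized counts (32.4 and 28.7). Mir138-1 had 50, 4 and 0 reads, its lowest in kidney and liver but not in heart. Low reads in these libraries were thus not shared by every feature that is highest in brain. In spleen, where no library lacked Mir219a-2, its lowest library had 104 reads of it and 81 of Mir124a-2.

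Size factors are set beside these reads. The 5 other heart libraries had 84 to 129 reads of Mir219a-2, a range of 1.54-fold, while their size factors spanned 3.91-fold. In the other organs, the libraries apart from the lowest had ranges closer to those of their size factors, 1.99-fold against 1.92-fold in kidney, 5.21-fold against 4.31-fold in liver and 2.30-fold against 2.37-fold in spleen. A similar range does not mean the same order. In liver, the library with a size factor of 2.15 had 114 reads, that with 1.45 had 344 and that with 0.601 had 115. For Mir219a-1 the same 5 heart libraries had 26 to 81 reads, a range of 3.12-fold. By the labels, heart, kidney and liver are the organs in which 1 WT library belongs to batch 2, while brain and spleen have none. Batch 2 is a set of 3 samples that were run on other sequencing lanes, since depth was low or the sample was missing in the first run. The tables do not show which library that is, and the part of batch in these values was not tested. No contrast can be formed within batch 2, which holds 1 library per organ.

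**Figure D4:**
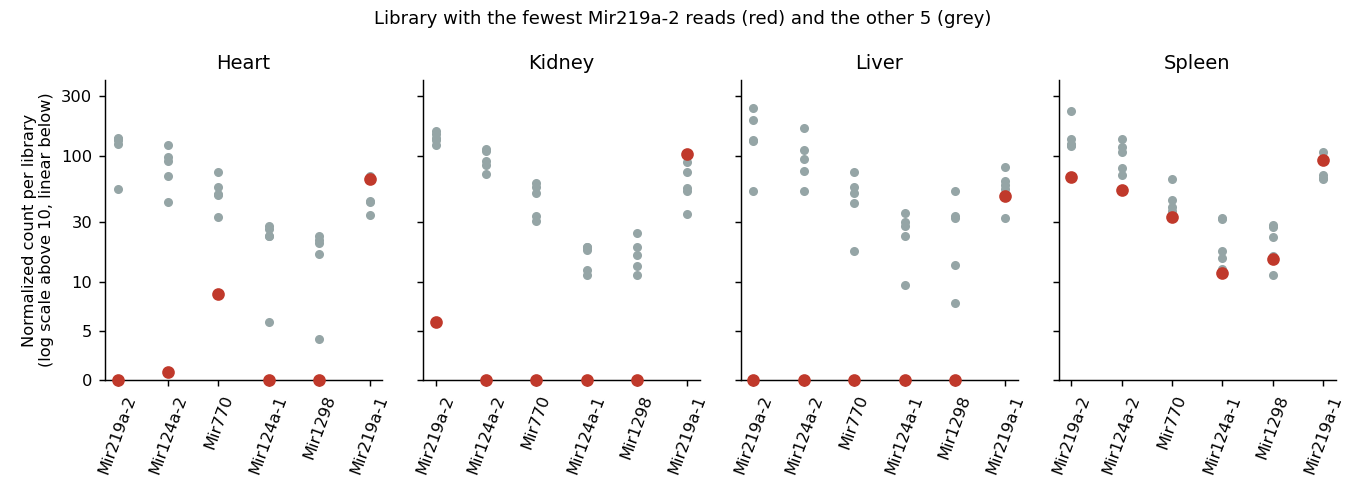
Normalized count per library (log scale above 10, linear below) of Mir219a-2, of 4 of its nearest features and of Mir219a-1 in the 4 organs outside brain, with the library of the lowest Mir219a-2 value in red and the other 5 in grey. In heart, kidney and liver the red library lies at the bottom for Mir219a-2 and the nearest features but within or above the other libraries for Mir219a-1.

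Mir219a-1 also had a set of nearest features by the same measure, at larger distances: Mir1955 (0.52), Mir5132 (0.54), Mir5113 (0.56), Mir6418 (0.57) and Mir423 (0.61). None of them is among the features nearest Mir219a-2. Mir423 is widely expressed and abundant, with a mean of 17398 in brain and 26275 in spleen, against 59.3 and 82.4 for Mir219a-1. The set is mixed, since Mir6418 is listed at 0 in liver and Mir5132 had a mean of 4.96 there. Mir338 had too few reads outside brain for this measure.

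The genotype contrast showed no called difference for any of the precursors. Of 12 contrasts with a statistic (Mir219a-1 and Mir219a-2 in 5 organs, Mir338 in brain and heart), 0 had an adjusted p under 0.05 in the authors' DESeq2 tables, and 0 had an unadjusted p below 0.05. Over all features tested, the share called in the authors' tables was 1.13% in heart, 0.229% in liver and 0% in each of brain, kidney and spleen. The share with an unadjusted p below 0.05 was 5.33% in heart, 4.5% in kidney, 3.9% in liver, 3.48% in spleen and 2.23% in brain. The smallest adjusted p of the precursors was 0.975. With 3 libraries a side, these p-values rest on the spread between libraries, which holds differences between mice and counting error together. Of the mice, 4 are brothers and the other 2 are brothers as well. In heart, kidney and liver the spread also holds batch, since 1 of the 3 WT libraries belongs to batch 2. No Ftsj1_DF library does, and the part of batch in these contrasts was not tested.

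In brain, the deposited mean and fold change of Mir219a-2 correspond to mean normalized counts of 59002 for the positive and 63979 for the negative libraries. The authors' deposited table gives a log2 fold change of -0.12 (SE 0.27, adjusted p = 0.989, DESeq2), with a 95% interval from -0.65 to 0.41. The interval runs from 0.639-fold to 1.33-fold, so larger changes of this abundant precursor lie outside it. It is the narrowest interval of the 11 with an adjusted p.

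For Mir219a-1 in brain, the normalized counts were 74.8, 35.5 and 35.6 in the positive libraries and 40.5, 86.8 and 82.4 in the negative ones, and the sides overlapped. The authors' deposited table gives -0.50 (SE 0.56, adjusted p = 0.989, DESeq2). For Mir338 in brain they were 16.1, 3.31 and 5.48 against 9.68, 6.68 and 4.05, again overlapping. The authors' deposited table gives 0.30 (SE 1.26, adjusted p = 0.989, DESeq2), with a 95% interval from -2.17 to 2.77 that spans changes of more than 4-fold either way. Without the library of 31 reads, the log2 ratio of the side means of Mir338 was -0.63 instead of 0.29, so its sign rested on that library.

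Outside brain, the deposited log2 fold changes of Mir219a-2 in the authors' tables were 0.76 (SE 0.80) in kidney, 0.66 (SE 1.26) in liver, 0.36 (SE 1.85) in heart and 0.14 (SE 0.44) in spleen. The wide errors of heart and liver belong to the organs with a library at 0. Without that library the log2 ratio of side means in heart was -0.22 instead of 0.36, and in liver it was 0.07 instead of 0.66. In kidney it was 0.21 instead of 0.76 without the library of 6 reads. In spleen the ratio was -0.40 instead of 0.14 without the highest positive library.

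The sides of Mir219a-1 did not overlap in spleen. Its normalized counts were 92.7, 108 and 90.8 in the positive libraries and 65.8, 67.1 and 70.2 in the negative ones, the positive libraries being higher. The authors' deposited table gives a log2 fold change of 0.52 (SE 0.40, p = 0.194, adjusted p = 0.988, DESeq2), a fold of 1.43 with a 95% interval from 0.832 to 2.47. The exact two-sided permutation test of the 3 against 3 libraries gave p = 0.1, the smallest it can give (0.5 after Benjamini-Hochberg adjustment over the 10 tests). Sides without overlap were seen in 2 of 11 cases with recovered reads, this one and Mir219a-2 in kidney, 2 organs in which the authors' DESeq2 tables called 0% of all features. Random division of the libraries, 3 against 3, leaves sides without overlap with a probability of 0.1. The 11 cases include Mir338 in heart, whose 1 read cannot separate the sides. The cases of an organ rest on the same 6 libraries and are not independent, and the share called by DESeq2 is another measure than overlap. How many of all features have sides without overlap was not computed, so the count is a description only.

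For Mir219a-1 in heart, the normalized counts were 34.2, 69.3 and 43.0 against 65.2, 65.2 and 43.6. In kidney they were 88.8, 55.7 and 73.9 against 52.9, 104 and 34.4, and in liver 63.1, 58.2 and 32.0 against 54.3, 48.2 and 81.3. The sides overlapped in all 3 organs. The authors' deposited tables give log2 fold changes of -0.27 (SE 0.51) in heart, 0.19 (SE 0.64) in kidney and -0.25 (SE 0.62) in liver. In kidney the log2 ratio of side means was -0.11 instead of 0.19 without negative library 3. Over all 10 exact permutation tests, p ran from 0.1 to 0.9.

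**Figure D5:**
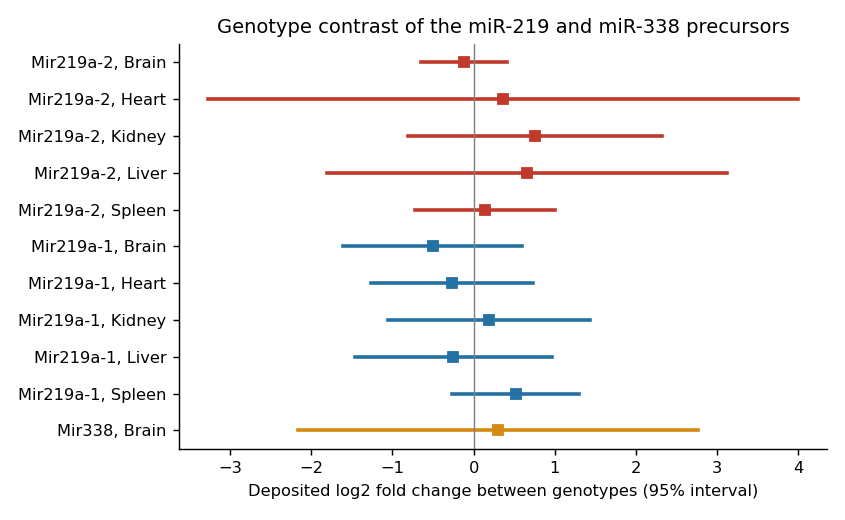
Deposited log2 fold change between genotypes (squares) with its 95% interval (lines) for the 11 contrasts with an adjusted p. All 11 intervals include 0, that of Mir219a-2 in brain is the narrowest, and that of Mir219a-2 in heart, where 1 library has 0 reads, is the widest.

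Whether the contrast differed between brain and another organ was tested as the difference of the deposited fold changes over their combined standard error. This treats organs of the same mice as independent. Over all features, 0 of 883 differed between brain and heart, 0 of 829 between brain and kidney, 0 of 734 between brain and liver and 0 of 875 between brain and spleen (0% each, Benjamini-Hochberg adjusted p under 0.05). Of the 9 differences that involve the precursors, 0 had an unadjusted p below 0.05. The largest in units of its error was that of Mir219a-1, whose log2 fold change in brain minus that in spleen was -1.02 (SE 0.69).

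Other microRNAs tied to oligodendrocyte development showed no called change either. The list holds 16 precursors, of which 14 were matched and 13 had a statistic (Mir3065 is listed at 0). In brain 0 of 13 passed the adjusted threshold in the DESeq2 tables and 1 had an unadjusted p below 0.05. Of the 13, 6 had positive and 7 negative fold changes, and their median log2 fold change was -0.01, beside -0.01 for all features tested in brain. In heart, kidney, liver and spleen, 0 were called and 2, 1, 0 and 1 had an unadjusted p below 0.05. Over all features tested, the share with such a p ran from 2.23% (brain) to 5.33% (heart). The list was not tested against these shares. Mir19b-1, named here for its p-values, was 1 of the 2 in heart (log2 fold change 0.82, SE 0.38, adjusted p = 0.319, DESeq2). It was also the 1 in spleen (0.77, SE 0.27, adjusted p = 0.988, DESeq2).

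The 2 most abundant of the list in brain were Mir125a, at 25395 CPM, and Mir27b, at 7705 CPM. Mir125a belongs to the lin-4 family, and its deposited log2 fold change in brain was -0.66 (SE 0.32, adjusted p = 0.989, DESeq2, authors' deposited table), the one of the list with an unadjusted p below 0.05. The same precursor had an unadjusted p below 0.05 in heart (-0.81, SE 0.35, adjusted p = 0.286, DESeq2) and kidney (-1.77, SE 0.62, adjusted p = 0.622, DESeq2). In liver its log2 fold change was -0.98 (SE 0.68), and in spleen it was positive, 0.39 (SE 0.25). Mir27b, of the miR-23/27/24 cluster, had -0.01 (SE 0.24) in the authors' deposited table. Both were thus more abundant in brain than Mir219a-2. Of the 13 precursors, 4 were highest in brain, 5 in heart and 4 in spleen, so the brain preference of Mir219a-2 was not shared by the whole list.

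The organ labels of brain, liver and heart were checked against known markers, and those of kidney and spleen were not. Features of neurons (Mir9, Mir128 and Mir124a precursors) made up 21.0% of normalized counts in brain and at most 0.213% in another organ. Mir122, the hepatocyte microRNA, made up 26.2% in liver, and precursors of striated muscle made up 9.87% in heart. Summed normalized counts averaged from 8511372 in heart to 21787131 in kidney per library. Since small RNA tables hold no messenger RNA, Ftsj1 itself gives no check of the genotypes.

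The listed zeros of Mir219b, Mir219c and Mir3065 were compared with other antisense pairs, a comparison chosen after the values were seen. Among RefSeq hairpins, 20 pairs on opposite strands of the same locus had both partners in the tables, and in 19 of them the shorter hairpin lay wholly inside the longer. In 19 of these 19 the inner hairpin is listed at 0 in all 5 organs, while 16 of the outer hairpins have values. Of all 1189 features with a microRNA symbol, 133 (11.2%) are listed at 0 throughout. Of the outer hairpins with values, 10 have no listed mature base outside the inner hairpin, and their highest organ means ran from 3.34 (Mir216b) to 61490.7 (Mir219a-2), with 5 of the 10 under 10, Mir338 among them. The other 6, Mir219a-1 among them, have at least 1 such base and ran from 58.4 (Mir3073a) to 608110 (Mir126a), with 0 under 10. This split depends on which strands the reference lists. It lists 1 strand for Mir219a-2, without the 3p arm, and also 1 for Mir142b, Mir497b, Mir3074-1 and Mir292 of the 10 and for Mir126a of the 6. An unlisted strand that reaches past the inner hairpin would place a hairpin of the 10 with the 6. The place of Mir219a-2, the highest of the 10, is therefore not settled, and the split is a description only. The pattern of the 3 oligodendrocyte loci, an outer precursor with values and an inner one at 0, was thus shared by other loci of that layout, and its cause was not tested.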

How the data were processed

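Small RNA libraries (NEXTflex kit, phenol-based extraction, per the labels' protocols) were counted with featureCounts (Subread 2.0.3) on GRCm39, and the authors compared genotypes in DESeq2, per the submitters' processing notes. Not given in the sources used here: aligner, annotation, strand setting and treatment of reads with several matches. The authors deposited 1 table per organ, without values per library. The deposited mean is a signal: counts divided by size factors, averaged over 6 libraries, per the file headers and processing notes. The deposited fold change and standard error are on the log2 scale, the deposited Wald statistic is a score, and the deposited p-value, also in adjusted form, comes from that statistic, per the file headers. Of 2195 rows, 1 without a name was left out.

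The planned design preferred counts per library, but the tables hold the authors' comparison, so their adjusted p under 0.05 was the test. Means under 1 are sums of few whole reads over size factors, which gave the 6 size factors of each organ and explained all 227 to 355 such means per organ. Low precursors' means were resolved into each library's whole reads (relative tolerance 1e-14), and where several splits matched, the refitted fold change left 1 (tolerance 0.0001). The size factors ran from 0.500 to 2.37. The steps were tested on simulated data. Ranges over libraries and reads cover counting error and animal spread together, and in heart, kidney and liver batch as well. A count of 0 allows up to 3 reads.

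Named features followed a rule: the 5 precursors, the 2 most abundant in brain of each list unless a member was called, the 5 nearest features, and genomic neighbours. Mir19b-1 was named outside this rule, for its unadjusted p-values. Of the marker lists, values are printed for neurons, hepatocytes and striated muscle. In brain, oligodendrocyte markers (Mir219a-1, Mir219a-2 and Mir338) summed to 0.382%, leukocyte and microglia markers to 0.0589%, endothelium and smooth muscle markers to 3.92% and red cell markers to 0.00713%. The red cell sum is that of Mir144 alone, since Mir451a is listed at 0. The leukocyte and microglia sum covers 3 of 4 listed precursors (Mir223, Mir150 and Mir155), since no feature has the symbol Mir142a. A feature with the symbol Mir142, named above, is listed at 0. The precursors and lists were chosen with earlier results of these data known. Python 3.11.15, numpy 2.4.6, pandas 2.3.3, scipy 1.17.1 and matplotlib 3.10.9 were used. RefSeq sequences and GENCODE genes are on GRCm38.p6, another build than the tables, and were matched by name with no coordinates carried over.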

Additional observations from a re-analysis of the deposited data

Results flagged for a closer look

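In 26 sets of 6 libraries of an organ, covering the precursors and the features nearest Mir219a-2, 3 held a library whose gap to the next value was above Dixon's 95% limit, as a share of the range. Chance gives about 1 in 20 such sets. In kidney, the lowest library of Mir219a-2 had 5.88 normalized counts, with a gap of 0.765 of the range. Mir124a-2 in kidney had its lowest value in the same library, 0 normalized counts, with a gap of 0.631 of the range. In spleen the highest library of Mir770 had 66.0 normalized counts, with a gap of 0.639 of the range. The libraries of 0 reads of Mir219a-2 in heart and liver did not pass this limit.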

How the results depend on the processing

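Dividing by microRNA symbols only moved none of the 12 levels above 0 by more than 1 SD. Leaving out the 10 most abundant features raised the levels by 1.85-fold to 4.14-fold depending on the organ and moved 11 of 12 by more than 1 SD. The fold of Mir219a-2 in brain over the next organ was then 197 and that of Mir219a-1 in its highest organ over brain 3.28. None of 40 adjusted p-values under other adjustments passed 0.05 (0.856 to 0.997), and 0 of 12 centred fold changes turned sign. With a pseudocount of 10 CPM, 2 of the 5 features nearest Mir219a-2 were shared, and by Pearson correlation 4.

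The log2 ratio of side means turned sign on raw reads for Mir219a-1 in brain (0.31), Mir219a-2 in liver (-0.72) and Mir219a-2 in spleen (-0.32). Leaving out each library in turn turned 4 of 10 ratios: Mir338 in brain ranged from -0.63 to 0.67, Mir219a-2 in heart from -0.22 to 0.83, Mir219a-1 in kidney from -0.11 to 0.74 and Mir219a-2 in spleen from -0.40 to 0.47. No paired analysis was possible because the tables carry no columns per mouse. Depth limits Mir338 (58 reads in brain) and the precursors outside brain.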
